A study of Mus musculus with 8 samples.

Results

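Mouse embryonic stem cells and the mesoderm made from them in culture were compared gene by gene by RNA sequencing. The comparison takes in 4 of the 8 libraries of the series, 2 labelled ESC, the stem cells on day 0, and 2 labelled MES, the mesoderm on day 4. All libraries carry the strain label 129/Ola and no genotype change is named. To reach MES, floating aggregates of stem cells, called embryoid bodies, grew without serum and were then dissociated and reaggregated in the presence of human VEGF, Activin A and BMP4. The ESC libraries carry the same growth text as the others, so no source used here gives the medium of the undifferentiated cells or says whether a feeder layer was present. The steps given above for MES include no sorting, so MES is treated here as a whole culture on day 4. The later stages CP (cardiac precursors, day 5.3) and CM (cardiomyocytes, day 10) are used only to show where a level went afterwards.

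All 13540 genes of the deposited table are members, each with 1 value per stage in RPKM, reads per kilobase of gene model and per 1000000 reads. The table holds no separate values for the 2 libraries of a stage, so no difference below has a replicate check, an SD or a p-value. Differences are given on the scale log2(RPKM + 1), which understates those of genes with low values, and a gene counts as higher or lower from 2-fold on this scale. By that rule 1498 genes (11.1%) were higher and 1519 (11.2%) lower in MES, and the median difference of all genes was 0.05. Those shares are the background against which the gene lists below are read. The depth recovered from the steps between low values was 75.3 M reads (1 M is 1000000) in ESC and 62.0 M in MES, so that 3 reads on a gene model of 2 kb equal 0.0199 and 0.0242 RPKM. For genes well above these values counting error is small, and what limits them is the missing replicate.

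Stem cells of the mouse in culture resemble the epithelial epiblast before implantation. They proliferate with short gap phases, carry a characteristic set of microRNAs, and express germ line genes at low levels. At gastrulation, epiblast cells pass through the primitive streak, give up epithelial junctions, migrate as mesenchyme and become mesoderm under the influence of BMP, WNT, FGF and NODAL signals.

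The defining markers moved as the labels name the stages. All 6 stem cell markers were lower and all 6 streak and mesoderm markers higher in MES, with medians of -5.36 and 4.91. Among the 12 highest and the 12 lowest genes by difference, Foxc2, a forkhead factor of paraxial and cardiac mesoderm, went from 0.0919 to 48.4 RPKM. Cfc1, which encodes the NODAL coreceptor Cryptic, went from 0.300 to 54.8 RPKM. Pdgfra, the PDGF receptor that marks early mesoderm, went from 0.206 to 48.3 RPKM, and Asb4, an imprinted ubiquitin ligase adaptor, from 0.115 to 39.6 RPKM. The opposite end held Dnmt3l, a cofactor of de novo DNA methylation (90.5 to 0.337 RPKM), and Nr0b1, an orphan nuclear receptor of the stem cell network (70.9 to 0.0625 RPKM). Switches between a low and a high level were about as frequent in both directions: 90 genes (0.665%) lay below 1 RPKM in ESC and at 10 RPKM or more in MES, and 108 (0.798%) the reverse.

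The largest changes in abundance, measured as the difference in RPKM, fell mostly on other genes, with Utf1, a chromatin factor of stem cells, in both sets (405 to 3.14 RPKM). Fn1, fibronectin of the extracellular matrix, gained most, from 159 to 715 RPKM. Hnrnpa0, an RNA-binding protein, went from 362 to 851 RPKM, and Phlda2, an imprinted growth regulator, from 72.1 to 494 RPKM. Hmga2, an architectural chromatin protein, went from 9.44 to 281 RPKM. Gpc3, a cell surface heparan sulfate proteoglycan, went from 18.5 to 288 RPKM, and Fscn1 and Marcksl1, which organise actin at the cell edge, went from 186 to 454 RPKM and 198 to 409 RPKM. Mt2, a metallothionein, lost most of its RNA (551 to 7.59 RPKM). Ncl, nucleolin of the nucleolus, was lower in RPKM but stayed under 2-fold (1180.0 to 672 RPKM).

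**Figure D1:**
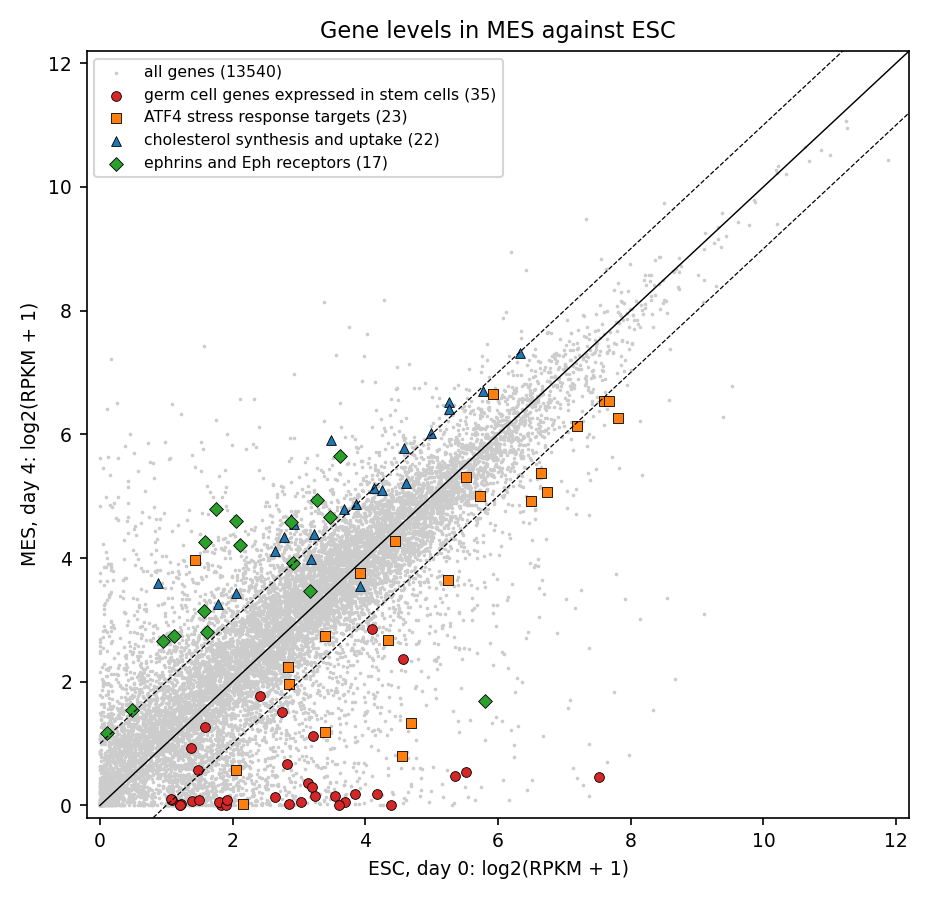
Each point is a gene, placed by its level in ESC (x axis) and MES (y axis), both as log2(RPKM + 1), with 1 value per stage. Dashed lines mark 2-fold. Germ cell genes and ATF4 targets lie mostly below the diagonal (29 of 35 and 14 of 23 at least 2-fold lower), cholesterol genes and ephrins mostly above it (16 of 22 and 14 of 17 at least 2-fold higher).

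The microRNA genes of the miR-290 cluster, which target cell cycle inhibitors in stem cells, were lower in MES as a block. The table has entries for 6 of its hairpins. The mature 3′ strands of 5 of them were matched by name to RefSeq (build GRCm38.p6, chromosome 7, plus strand, between 3218968 and 3220837), and miR-292a-3p was not matched. They are shown because the seed, bases 2 to 8, in capitals, sets which messages a microRNA pairs with:

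miR-291a-3p: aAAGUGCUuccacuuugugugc

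miR-294-3p: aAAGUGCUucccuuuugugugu

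miR-295-3p: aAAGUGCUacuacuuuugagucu

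miR-291b-3p: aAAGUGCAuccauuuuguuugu

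miR-293-3p: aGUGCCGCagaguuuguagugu

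Of these 5, the first 3 share 1 seed. That of miR-291b-3p differs from it in the last base, U8A counted from the 5′ end. The hairpin entries Mir291a, Mir294 and Mir295, which carry the shared seed, went from 9.71 to 0.394 RPKM, from 17.2 to 1.34 RPKM and from 38.9 to 1.87 RPKM. Mir291b went from 25.7 to 1.43 RPKM, Mir293 from 17.6 to 1.82 RPKM and Mir292 from 10.8 to 0.590 RPKM. All 6 were at least 2-fold lower, and summed over the entries the level went from 119.9 to 7.45 RPKM. In CM each was listed at 0. These values rest on few reads in MES, about 7 for Mir294 against 109 in ESC. They come from fragments of poly(A) RNA and so reflect the primary transcript around the hairpins, not the mature strands printed above.

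Genes around let-7, the microRNA family of differentiating cells, moved the other way or stayed. Of 21 genes of this list 6 were higher and 0 lower (median 0.25). Besides Hmga2, a classic let-7 target, these were Igf2bp3 and Igf2bp2, fetal RNA-binding proteins (8.62 to 42.8 RPKM) and (11.8 to 30.4 RPKM), Prkra, a partner of Dicer (5.06 to 24.6 RPKM), Lin28b, a blocker of let-7 processing (3.99 to 9.38 RPKM), and Zcchc11, which tails its precursor with uridine (5.89 to 13.4 RPKM).

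Genes of the germ line were mostly lower in MES. Of 50 genes chosen, 35 were in the table, 29 of them lower and 0 higher, with a median of -2.09. Tex19.1, which restrains retrotransposons, went from 44.7 to 0.448 RPKM, and Gtsf1l, related to a piRNA pathway factor, from 40.0 to 0.393 RPKM. Sohlh2, a transcription factor of germ cells, went from 7.15 to 0.0410 RPKM, and Ddx4, the Vasa helicase, from 5.23 to 0.102 RPKM. Genes of the piRNA pathway and of meiosis had low values in ESC and lower ones in MES, among them Tdrd12 (13.4 to 0.135 RPKM), Mael (6.197 to 0.0210 RPKM), Piwil2 (2.75 to 0.0657 RPKM) and Sycp3 of the synaptonemal complex (6.04 to 0.588 RPKM). Dazl and Stra8, which act at the entry into meiosis, stood at 2.56 and 2.72 RPKM in ESC and were listed at 0 in MES. Prdm14 and Nanos3, regulators of primordial germ cells, went from 8.19 to 0.236 RPKM and 7.82 to 0.287 RPKM.

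Some of the lower genes were relatives of housekeeping genes, and they were grouped here after their values had been seen. Among them, Rpl10l, Rpl39l and Tuba3a are members of the germ cell list and are already counted above. Of 81 cytosolic ribosomal protein genes 0 were higher and 4 lower (median -0.19). Rps4y2, a relative of the ribosomal protein gene Rps4x that shares 25.1% of its 32-base words with other genes, went from 737 to 109 RPKM, Rpl10l, the testis relative of Rpl10, from 182 to 0.375 RPKM, and Rpl39l from 20.01 RPKM to a listed 0. The other lower one was Rpl3 (20.5 to 8.24 RPKM), whose transcript shares 60.9% of its 32-base words with other genes, so that its reads may have been split between copies. Tuba3a, a tubulin of testis, went from 17.0 to 0.140 RPKM, and Psma8, the proteasome subunit of spermatocytes, from 8.09 to 0.162 RPKM.

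Genes expressed at the 2-cell stage, many of which a small fraction of stem cells switches on at any time, were also lower, in 8 of 10 cases (median -1.77). Of 21 genes chosen only these 10 were in the table, so the filter described for germ line genes bears on this count too. These 8 include Zfp42, already counted among the stem cell markers above (251 to 0.758 RPKM). It made up most of the summed level of the list in ESC, 382 RPKM. Zscan4c and Zscan4f, telomere regulators, stood at 6.57 and 2.33 RPKM in ESC and were both listed at 0 in MES. They share 91.2% and 97.5% of their 32-base words with other genes, so the split between them is uncertain, and without members that share over 50% of their words the count of lower genes was 5. The X-linked homeobox genes Rhox6 and Rhox9, of placenta and germ line, went from 11.9 to 0.0370 RPKM and 10.7 to 0.110 RPKM. Bulk RNA does not tell fewer cells of a kind from less RNA per cell, here or in any result below.

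Signalling by LIF, the cytokine that maintains mouse stem cells through JAK and STAT3, was compared through its pathway members and targets. Of 19 genes 7 were lower and 1 higher (median -0.77). The STAT3 targets Pim1, a kinase, Bcl3, an NF-kB cofactor, and Socs3, the feedback inhibitor, went from 86.6 to 5.98 RPKM, 9.41 to 0.0486 RPKM and 9.42 to 2.39 RPKM. Stat3 itself went from 8.38 to 1.85 RPKM. Stat5b was the higher member (1.09 to 4.20 RPKM). Interferon-induced genes, of which STAT factors are also regulators, had 7 of 24 members lower and 1 higher (median -0.36), led by Ifitm3, a membrane protein that blocks viral entry (151 to 10.2 RPKM), and Gbp2, a guanylate-binding protein (9.76 to 0.0196 RPKM).

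Of 14 genes of metal handling 7 were lower and 1 higher (median -0.82). Metallothioneins bind zinc and copper, and Mt1, Mt2 and Mt3 were all lower, from 240.2 to 9.08 RPKM, 551 to 7.59 RPKM and 3.32 to 0.336 RPKM. At the later stages Mt1 was at 14.6 RPKM (CP) and 115 RPKM (CM). The zinc importer Slc39a14 was lower (8.603 to 3.02 RPKM) and its relative Slc39a8 higher (0.365 to 6.02 RPKM). Of the iron genes, the reductase Steap3 and the exporter Slc40a1 were lower, from 6.22 to 0.356 RPKM and 4.40 to 1.55 RPKM, as was transferrin Trf (1.18 to 0.0622 RPKM), which shares 80.6% of its 32-base words with other genes. The iron store Fth1 stayed under 2-fold (328 to 451 RPKM), as did the transferrin receptor Tfrc (44.1 to 28.7 RPKM). Of 27 genes of redox defence 8 were lower and 3 higher (median -0.40). Gsta4, a glutathione transferase, went from 282 to 73.4 RPKM, Nqo1, a quinone reductase, from 6.02 to 1.34 RPKM, Hmox1, heme oxygenase, from 50.6 to 18.2 RPKM, and Sod2, the mitochondrial superoxide dismutase, from 101 to 40.7 RPKM.

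Genes that the transcription factor ATF4 activates when amino acids run short or unfolded proteins build up were mostly lower in MES. Of 23 such targets 14 were lower and 1 higher (median -1.13). Chac1, which degrades glutathione, went from 22.5 to 0.739 RPKM, Trib3, a pseudokinase, from 24.9 to 1.53 RPKM, and Stc2, a secreted glycoprotein, from 9.49 to 1.28 RPKM. Asns, asparagine synthetase, went from 106 to 32.5 RPKM, Gpt2, an alanine transaminase, from 19.24 to 5.38 RPKM, and Atf4 itself from 193 to 92.0 RPKM. Vldlr, a lipoprotein receptor, was the higher member (1.69 to 14.6 RPKM). The enzymes that charge tRNAs with amino acids, several of which are ATF4 targets, had 8 of 34 lower and 0 higher members (median -0.36), or 5 lower with quantile normalization. Cars, Aars and Sars, for cysteine, alanine and serine, went from 36.9 to 11.6 RPKM, 88.9 to 29.3 RPKM and 99.7 to 40.5 RPKM.

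The motif TGATGNAA, part of the composite element that ATF4 binds with C/EBP factors, was searched on both strands in the 250 bases before the RefSeq start (build GRCm38.p6). It was found in 7 of the 20 ATF4 targets that had such a window, against 2.33% of 10216 genes. The windows of Chac1, Asns and Aars are shown 5′ to 3′ on the strand of the gene, with matches in capitals:

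Chac1, chr2:119350992-119351241, strand plus: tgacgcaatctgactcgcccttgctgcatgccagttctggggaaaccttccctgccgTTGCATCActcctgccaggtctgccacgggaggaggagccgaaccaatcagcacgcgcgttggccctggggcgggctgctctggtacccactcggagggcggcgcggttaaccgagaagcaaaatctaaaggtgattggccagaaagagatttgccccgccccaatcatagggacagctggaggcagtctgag

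Asns, chr6:7693210-7693459, strand minus: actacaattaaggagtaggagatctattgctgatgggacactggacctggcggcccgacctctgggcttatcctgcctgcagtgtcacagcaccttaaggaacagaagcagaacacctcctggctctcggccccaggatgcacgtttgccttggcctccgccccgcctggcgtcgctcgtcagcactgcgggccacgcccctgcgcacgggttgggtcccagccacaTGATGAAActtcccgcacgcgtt

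Aars, chr8:111033592-111033841, strand plus: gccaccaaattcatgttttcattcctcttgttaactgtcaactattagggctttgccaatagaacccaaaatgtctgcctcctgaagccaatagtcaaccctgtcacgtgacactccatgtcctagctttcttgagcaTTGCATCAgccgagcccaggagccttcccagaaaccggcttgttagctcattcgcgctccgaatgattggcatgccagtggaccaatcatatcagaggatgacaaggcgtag

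The match in Asns reads TGATGAAA, and those in Chac1 and Aars read TTGCATCA, the motif on the other strand. The other genes with a match were Atf3, Nupr1, Gars and Vldlr. Nupr1, a small chromatin protein of the stress response, went from 3.46 to 0.0132 RPKM, and Atf3, a stress-induced repressor, from 3.12 to 0.496 RPKM. The motif was thus present both in lower members and in Vldlr, the higher one. A match describes letters in a window and not a bound site, and the motif was chosen after the values had been seen.

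Amino acid uptake and the enzymes around it differed by gene. Of 21 transporters 7 were lower and 3 higher (median -0.18). The carriers of cationic amino acids Slc7a3 and Slc7a1 went from 54.7 to 1.08 RPKM and 21.9 to 2.32 RPKM, and Slc7a7 from 57.8 to 5.16 RPKM. Slc7a5 and Slc3a2, the subunits of the leucine exchanger, went from 98.4 to 34.8 RPKM and 161 to 61.3 RPKM. Slc6a6, which takes up taurine, was higher (33.6 to 95.6 RPKM). Around glycine and serine, Psat1 of serine synthesis went from 223 to 76.0 RPKM, Gldc and Amt of the glycine cleavage system from 60.6 to 20.96 RPKM and 65.4 to 20.3 RPKM, and Mthfd2 of mitochondrial folate metabolism from 57.9 to 15.7 RPKM. In all, 8 of 20 genes of this pathway were lower and 1 higher (median -0.66).

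Cholesterol synthesis was the metabolic list with the highest share of higher members. Of 22 genes 16 were higher in MES and 0 lower, with a median of 1.16. They included Sqle, squalene epoxidase (37.3 to 84.1 RPKM), Lss, which closes the sterol rings (13.5 to 28.3 RPKM), and Cyp51 (10.2 to 59.4 RPKM), Sc4mol (5.84 to 19.19 RPKM) and Nsdhl (6.35 to 23.8 RPKM), which strip methyl groups from lanosterol. Stard4, a sterol carrier, went from 6.56 to 22.5 RPKM. Several of these lay close to the 2-fold limit. Centred on the median ratio of well expressed genes the count was 13.

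Of 14 genes of fatty acid synthesis and desaturation 5 were higher and 1 lower (median 0.77). Scd1 and Scd2, which make monounsaturated fatty acids, went from 10.1 to 59.7 RPKM and 84.9 to 404 RPKM. Fads1 and Fads2, which make polyunsaturated ones, went from 13.9 to 54.0 RPKM and 21.2 to 135 RPKM. The elongase gene Elovl1 went from 6.27 to 15.0 RPKM. Fasn, fatty acid synthase, and Acly, which supplies its acetyl-CoA, stayed under 2-fold, from 96.3 to 144 RPKM and 99.1 to 126 RPKM. Acacb, the acetyl-CoA carboxylase of mitochondria, was lower (3.06 to 0.875 RPKM).

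The windows before the start of Cyp51 and Sc4mol are shown because both hold the CCAAT box, in capitals, a motif bound by NF-Y:

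Cyp51, chr5:4104698-4104947, strand minus: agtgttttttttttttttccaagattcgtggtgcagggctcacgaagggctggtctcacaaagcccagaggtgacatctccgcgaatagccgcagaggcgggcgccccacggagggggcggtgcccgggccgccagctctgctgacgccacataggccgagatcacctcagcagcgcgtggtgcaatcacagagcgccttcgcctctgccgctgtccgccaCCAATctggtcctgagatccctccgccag

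Sc4mol, chr8:64733579-64733828, strand minus: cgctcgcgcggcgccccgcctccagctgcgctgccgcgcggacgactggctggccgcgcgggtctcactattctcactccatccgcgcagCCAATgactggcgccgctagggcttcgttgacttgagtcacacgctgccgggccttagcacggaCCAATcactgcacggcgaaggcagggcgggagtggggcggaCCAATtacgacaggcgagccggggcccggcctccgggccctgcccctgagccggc

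On either strand, CCAAT was found in the window of each of the 14 cholesterol genes that had one, against 40.3% of all 10216 genes. Ebp, Srebf2 and Insig1 are among these genes and stayed under 2-fold, from 14.1 to 10.7 RPKM, 53.6 to 103 RPKM and 18.0 to 33.4 RPKM. The motif was thus present both in higher members and in members that were not. The sterol response element as TCACNCCAC was found in 0 of the 14, against 1.3% of all genes. That spelling covers only part of the sites that SREBP factors bind, and the window of Sqle was not matched. Of 5 motifs searched, the other 2 were CACGTG, an E-box, found in 9 of 28 germ cell genes with a window against 10.1% of all genes, and TGCNCNC, the core of the metal response element, found in 6 of 10 genes of metal handling against 58.2%. All 5 were searched after the values had been seen.

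Fewer genes of central carbon metabolism passed 2-fold. Of 27 glycolysis genes 5 were lower and 1 higher (median -0.33). Pfkp, a phosphofructokinase, went from 39.9 to 4.94 RPKM, Pdk1, which shuts pyruvate out of mitochondria, from 17.3 to 3.11 RPKM, the glucose transporter Slc2a3 from 380.3 to 92.5 RPKM and the hexokinase Hk2 from 88.4 to 37.3 RPKM. The lactate carrier Slc16a1 was higher (31.0 to 96.4 RPKM). Of 24 genes around the citric acid cycle 1 was lower, Pdhb of the pyruvate dehydrogenase complex (25.8 to 11.8 RPKM), and 1 higher, Idh1, the cytosolic isocitrate dehydrogenase (18.5 to 65.0 RPKM). The 40 nuclear genes of respiratory complex I and the 17 of ATP synthase had 0 members beyond 2-fold (medians -0.05 and -0.01).

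**Figure D2:**
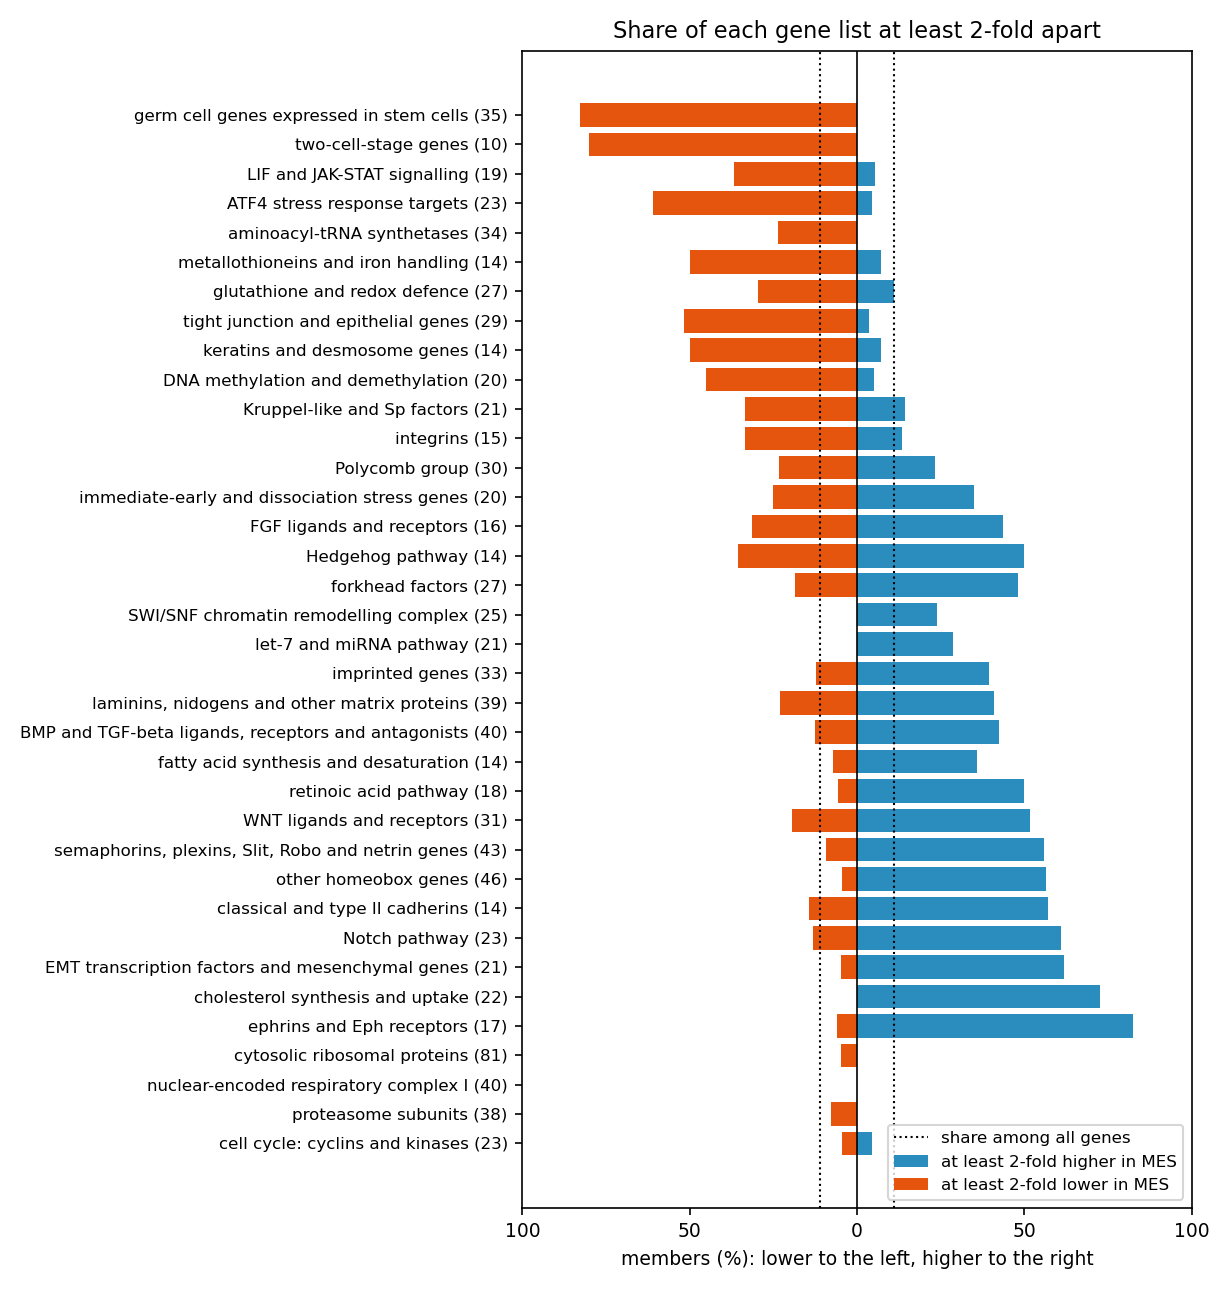
For each gene list, with its number of genes in parentheses, the bar to the right is the share of members at least 2-fold higher in MES and the bar to the left the share at least 2-fold lower (x axis, %). Dotted lines mark the shares among all 13540 genes, 11.1% and 11.2%. Ribosomal, respiratory, proteasome and cell cycle genes stay inside those lines, while the germ cell bar reaches 29 of 35 members and the ephrin bar 14 of 17.

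Among chromatin regulators, several paralogs moved in opposite directions. Among 20 genes that write or erase DNA methylation 9 were lower and 1 higher (median -0.62). The dioxygenases Tet1 and Tet2, which oxidise 5-methylcytosine, went from 60.0 to 8.48 RPKM and 21.9 to 1.62 RPKM, while Tet3 went from 1.84 to 7.96 RPKM. Gadd45a, Gadd45b and Gadd45g, stress proteins linked to demethylation, were all lower, from 41.6 to 4.80 RPKM, 11.8 to 1.75 RPKM and 16.4 to 5.20 RPKM. The cytidine deaminase Apobec3 went from 43.8 to 4.82 RPKM.

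Polycomb complexes, which keep developmental genes silent, were divided, with 7 of 30 members higher and 7 lower (median 0.10). Of the CBX proteins, which read methylated histone H3, Cbx7 was lower (70.3 to 3.68 RPKM) and Cbx2 higher (7.74 to 48.0 RPKM), with Cbx8 higher at a low level (0.188 to 1.66 RPKM). Phc1 was lower (166 to 37.5 RPKM) and its paralog Phc2 higher (5.57 to 22.3 RPKM). Of the PRC2 complex, the cofactors Jarid2, Mtf2 and Phf19 were lower, from 130.0 to 27.1 RPKM, 50.2 to 22.7 RPKM and 4.02 to 0.276 RPKM, as was the core subunit Eed (67.5 to 26.2 RPKM). Of PRC1, Ring1 and Bmi1 were higher, from 5.90 to 17.2 RPKM and 1.03 to 5.66 RPKM.

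The SWI/SNF remodelling complex had 6 of 25 members higher and 0 lower (median 0.48). Smarcd3, the subunit of heart and muscle, went from 1.25 to 13.9 RPKM. The ATPase Smarca2 and Smarcc2, paralogs of the subunits that dominate in stem cells, went from 0.422 to 2.89 RPKM and 7.74 to 18.9 RPKM. Of the histone demethylases, Kdm6b, which acts on methylated lysine 27 of histone H3, went from 9.42 to 39.3 RPKM, and Kdm4c, which acts on lysine 9, from 14.8 to 2.36 RPKM. The macroH2A gene H2afy2 went from 16.1 to 68.7 RPKM and the linker histone gene H1fx from 55.8 to 146 RPKM.

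Imprinted genes, which are expressed from 1 parental copy and often regulate growth, were more often higher than lower. Of 33 genes 13 were higher and 4 lower (median 0.58), and their summed level went from 429 to 1330.2 RPKM. Peg3, a zinc finger protein, went from 14.9 to 153 RPKM, Ndn, necdin, from 10.4 to 48.0 RPKM, Gnas, the stimulatory G protein subunit, from 21.6 to 93.1 RPKM, Mest from 23.5 to 52.0 RPKM and Grb10, an inhibitor of insulin signalling, from 33.5 to 75.6 RPKM. Igf2, insulin-like growth factor 2, went from 25.5 to 107 RPKM, a value that is uncertain since 76.0% of its 32-base words occur in other genes. Cobl, an actin nucleator, was the lower member with the largest difference (19.3 to 0.513 RPKM). Phlda2 and Asb4, named above, belong to this list too.

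**Figure D3:**
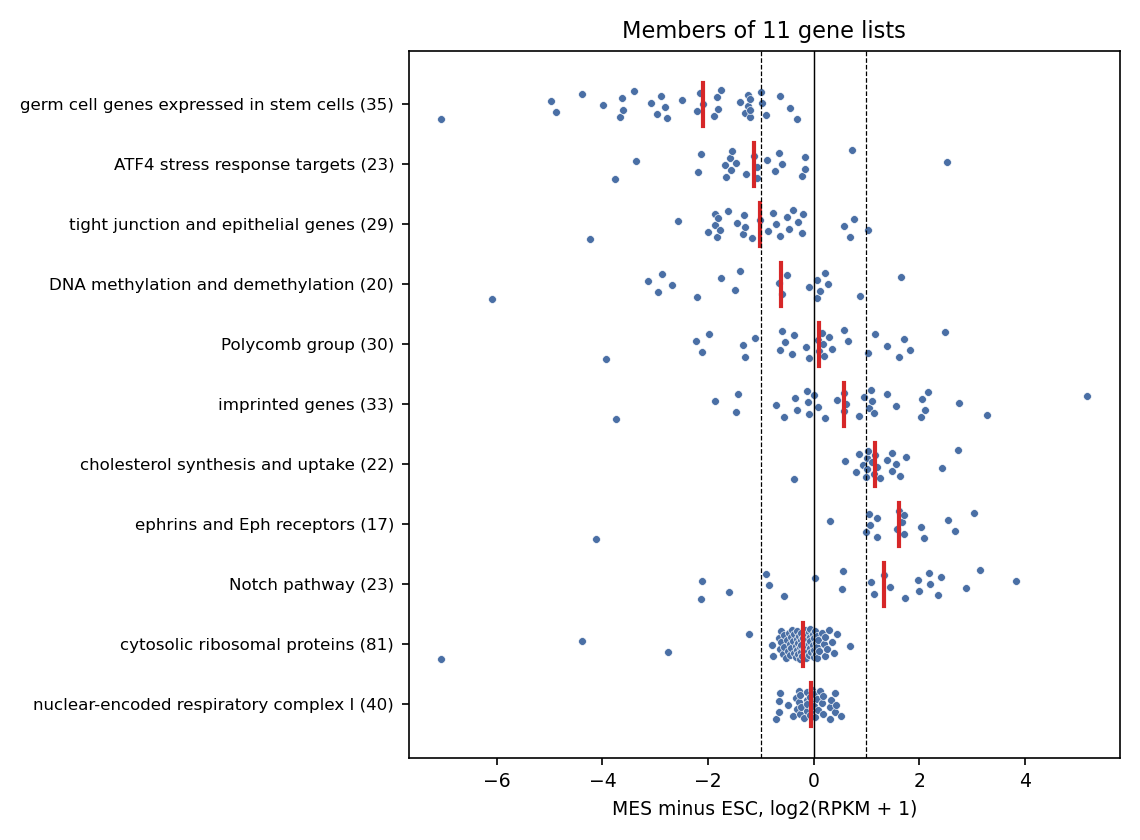
Each point is a gene of the list named on the y axis, with the number of genes in parentheses, and the x axis is MES minus ESC in log2(RPKM + 1). Red bars are medians, dashed lines mark 2-fold, and vertical offsets only separate points. The cholesterol genes have a median of 1.16 and none beyond 2-fold on the lower side, whereas the Polycomb genes spread to both sides of 0.10.

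Epithelial genes were lower and mesenchymal ones higher. Of 29 genes of tight junctions and epithelial identity 15 were lower and 1 higher (median -1.02). Cldn4, a claudin of the tight junction, went from 77.3 to 3.16 RPKM, and Grhl2, a transcription factor of epithelia, from 13.4 to 1.43 RPKM. The splicing regulators of epithelia Esrp1 and Esrp2 went from 16.0 to 3.27 RPKM and 4.70 to 0.302 RPKM, while Rbm24, a splicing factor of muscle, went from 0.0867 to 13.9 RPKM. Cldn6 stayed under 2-fold (58.5 to 41.9 RPKM). Desmosome and keratin genes had 7 of 14 lower and 1 higher, desmoplakin Dsp (13.6 to 31.6 RPKM). The lower ones included plakophilin Pkp2 (32.5 to 4.14 RPKM), plakoglobin Jup (36.6 to 5.79 RPKM) and Krt19 (30.3 to 5.88 RPKM). The main simple-epithelium keratins Krt8 and Krt18 stayed under 2-fold, from 66.9 to 58.9 RPKM and 132 to 89.2 RPKM.

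Among EMT factors and mesenchymal genes 13 of 21 were higher and 1 lower (median 1.39). Snai1 and Twist1, repressors of E-cadherin, went from 3.99 to 94.1 RPKM and 1.95 to 53.04 RPKM, and Zeb1 and Zeb2 from 2.14 to 5.74 RPKM and 0.391 to 4.45 RPKM. Snai3 was the lower one (4.003 to 0.119 RPKM). Cadherins, the adhesion molecules between cells, showed an exchange that went beyond E-cadherin Cdh1 (138 to 31.5 RPKM). P-cadherin Cdh3 was lower (12.03 to 0.953 RPKM). Cdh11, of mesenchyme, went from 0.340 to 37.0 RPKM, and the protocadherins Pcdh8 (paraxial protocadherin), Pcdh19, Pcdh7 and Pcdh18 from 0.337 to 24.4 RPKM, 0.327 to 23.1 RPKM, 0.531 to 22.6 RPKM and 0.954 to 25.5 RPKM. These 4 are the only ones of 12 protocadherins that lay below 1 RPKM in ESC and at 10 RPKM or more in MES. Of the 12, 6 were higher and 0 lower, and the other 6 stayed under 2-fold, among them Pcdh1 and Pcdh17. The cadherin list, which includes protocadherins, had 8 of 14 higher and 2 lower members (median 2.20), with Cdh13 under 2-fold.

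The extracellular matrix changed in composition. Of 39 genes of laminins and other matrix proteins 16 were higher and 9 lower (median 0.20). In the basement membrane, Lama5, Lamc1 and Nid2 were lower, from 59.6 to 12.4 RPKM, 70.5 to 19.8 RPKM and 130.0 to 33.1 RPKM, and Lama1, Col4a1 and Col4a2 higher, from 5.305 to 18.8 RPKM, 11.9 to 61.3 RPKM and 8.06 to 27.2 RPKM. Fibrillin Fbn2 and fibulin Fbln2, of elastic fibres, went from 0.794 to 23.7 RPKM and 0.996 to 15.4 RPKM. Has2, which makes hyaluronan, went from 0.869 to 23.7 RPKM, and Vcan, the hyaluronan-binding proteoglycan versican, from 5.84 to 16.0 RPKM. Serpinh1, the collagen chaperone, went from 68.3 to 249.6 RPKM, and the protease genes Mmp2 and Mmp15 from 6.36 to 36.5 RPKM and 2.44 to 18.6 RPKM. Col18a1 was lower (97.3 to 10.5 RPKM).

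Col1a1, the fibrillar collagen of fibroblasts, was also lower (14.8 to 0.615 RPKM). It belongs to the feeder fibroblast markers, of which 1 of 7 was lower and 0 higher. Their summed level was 157 RPKM in ESC and 202 RPKM in MES, most of it Vim, which mesoderm also expresses (136 to 199 RPKM). Lum was listed at 0 at both stages and Postn stood at 0.119 and 0.0618 RPKM. The part of such cells in the differences was not tested. Of 10 annexins, which bind membranes with calcium, 4 were lower and 0 higher (median -0.98), with Anxa1, Anxa3 and Anxa2 from 13.98 to 0.0115 RPKM, 21.9 to 1.74 RPKM and 15.6 to 4.37 RPKM. Of 6 S100 genes 2 were lower, led by S100a6 (41.1 to 1.57 RPKM), and 1 higher, S100a1 (0.975 to 5.77 RPKM). Plaur, the urokinase receptor, was lower (11.8 to 0.264 RPKM) and was singled out after its value had been seen. The Anxa1 value in MES rests on about 1 read.

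Of 15 integrins, the matrix receptors, 5 were lower and 2 higher (median -0.10). The shared beta subunit gene Itgb1 and the fibronectin receptor gene Itga5 stood at 67.4 and 70.1 RPKM and 22.8 and 20.9 RPKM, while Itga3 and Itga6, which pair with laminin, were lower, from 36.6 to 0.495 RPKM and 16.4 to 4.10 RPKM, and Itgb5 and Itga8 higher, from 13.5 to 54.4 RPKM and 0.217 to 3.83 RPKM. Enzymes that sulfate heparan and related sugars had 10 of 25 higher and 2 lower members (median 0.83). Chst2 went from 1.62 to 50.03 RPKM, Hs3st3b1 from 0.824 to 18.8 RPKM and Chst7 from 0.909 to 15.4 RPKM, whereas Hs6st1, which adds sulfate at another position, went from 32.8 to 7.603 RPKM.

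Guidance genes, known from growing axons and also used by migrating mesoderm, were higher across several families. Of 17 ephrins and Eph receptors 14 were higher and 1 lower (median 1.62). All 8 ephrin ligands were higher and together went from 28.98 to 152 RPKM, with Efna3 from 2.38 to 26.8 RPKM, Efnb3 from 1.98 to 18.2 RPKM and Efnb1 from 3.16 to 23.3 RPKM. Of 9 Eph receptors 6 were higher, among them Ephb4, the partner of ephrin-B2 in vessels (11.3 to 49.1 RPKM), and Epha4 (10.02 to 24.3 RPKM). Epha2 was the exception and in ESC the most abundant receptor of the list (55.1 to 2.22 RPKM). It stood at 9.52 RPKM in CP.

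Of 43 semaphorin, plexin, Slit, Robo and netrin genes 24 were higher and 4 lower (median 1.19). Nrp1, the neuropilin that binds semaphorins and VEGF, went from 0.970 to 57.4 RPKM. The receptors Robo3 and Robo1 went from 0.123 to 13.5 RPKM and 6.66 to 30.9 RPKM, and all 3 Slit ligands were higher, Slit1 from 0.295 to 11.8 RPKM, Slit2 from 0.729 to 3.50 RPKM and Slit3 from 1.53 to 12.6 RPKM. Sema4c went from 2.09 to 25.1 RPKM and Sema6d from 0.0465 to 6.47 RPKM, whereas Sema3e and Sema4b were lower, from 7.20 to 0.373 RPKM and 18.4 to 5.13 RPKM. Rgma, a ligand of neogenin and BMP coreceptor, went from 1.12 to 20.7 RPKM.

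In the FGF pathway, ligands moved in both directions. Fgf4, the autocrine factor of stem cells, went from 46.8 to 1.60 RPKM, and Fgf17 and Fgf18 from 31.4 to 0.536 RPKM and 6.45 to 0.122 RPKM. Fgf3, Fgf8 and Fgf10 were higher, from 0.605 to 32.9 RPKM, 2.87 to 16.3 RPKM and 0.115 to 9.68 RPKM. The receptor genes Fgfr1 and Fgfr3 went from 19.9 to 68.3 RPKM and 0.313 to 3.91 RPKM, and Fgfr2 stood at 5.36 and 5.29 RPKM. Of 20 ERK feedback and target genes 4 were lower and 2 higher (median 0.01). Etv5 and Spry4 were lower, from 96.4 to 13.7 RPKM and 18.1 to 4.24 RPKM, as was Dusp6 (49.96 to 23.5 RPKM), and Egr1 was higher (19.9 to 94.0 RPKM). Over the list 7 of 16 FGF genes were higher and 5 lower (median 0.68).

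WNT ligands and receptors had 16 of 31 higher and 6 lower members (median 1.02). The ligands Wnt2, Wnt5a and Wnt3 went from 0.0353 to 17.6 RPKM, 0.784 to 14.3 RPKM and 4.49 to 20.02 RPKM, and Rspo3, which keeps WNT receptors at the surface, from 0.209 to 23.6 RPKM. The receptors Fzd7, Fzd2 and Fzd1 were higher, from 21.3 to 107 RPKM, 17.0 to 82.8 RPKM and 0.698 to 15.8 RPKM, and Fzd5 and Fzd9 lower, from 19.6 to 6.12 RPKM and 3.58 to 0.774 RPKM. Wnt7b was lower (11.9 to 0.102 RPKM). Of 14 genes on the list of secreted inhibitors 7 were higher and 2 lower (median 0.79). Frzb, Apcdd1 and Sfrp1 were higher, from 0.135 to 27.4 RPKM, 2.25 to 30.7 RPKM and 6.21 to 46.4 RPKM, and Notum and Sfrp4 lower, from 32.4 to 2.34 RPKM and 3.62 to 0.185 RPKM.

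Of 40 genes of BMP and TGF-beta signals 17 were higher and 5 lower (median 0.81). The ligands Bmp7, Bmp2 and Tgfb1 went from 0.677 to 24.4 RPKM, 0.698 to 12.3 RPKM and 5.93 to 24.7 RPKM, and Bmp5 from a listed 0 to 12.5 RPKM. The receptor genes Acvr2b and Bmpr1a went from 13.6 to 51.4 RPKM and 11.6 to 26.97 RPKM. The extracellular antagonists Bmper and Fst and the pseudoreceptor Bambi were higher too, from 0.113 to 13.9 RPKM, 2.09 to 13.96 RPKM and 2.70 to 18.98 RPKM, as was the inhibitory Smad6 (5.75 to 34.6 RPKM). Inhbb, an activin subunit, was lower (6.76 to 0.0683 RPKM), as was endoglin Eng (10.7 to 2.61 RPKM).

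The Notch pathway, which sets the segmentation clock in paraxial mesoderm, had 14 of 23 higher and 3 lower members (median 1.33). The ligand genes Dll3 and Dll1 went from 2.98 to 55.8 RPKM and 2.59 to 30.8 RPKM, the receptor gene Notch1 from 5.33 to 27.9 RPKM and the modifier Lfng, lunatic fringe, from 4.58 to 27.6 RPKM. Their targets Hes1, Hey1 and Nrarp were higher, from 9.93 to 42.3 RPKM, 2.09 to 13.2 RPKM and 2.24 to 16.1 RPKM, as were Mesp2 and Ripply2 of somite boundaries, from 1.07 to 14.3 RPKM and 0.0264 to 3.12 RPKM. Rbpj, the transcription factor through which Notch acts, was lower (17.5 to 5.12 RPKM), as were Jag2 (12.9 to 2.18 RPKM) and Notch4 (5.97 to 0.6177 RPKM).

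Hedgehog genes split by role. The receptor components Smo, Gas1 and Boc were higher, from 9.43 to 73.3 RPKM, 1.34 to 79.6 RPKM and 0.593 to 8.07 RPKM. The pathway's own targets Gli1 and Ptch1 were lower, from 32.3 to 4.07 RPKM and 36.5 to 11.8 RPKM. The repressor Gli3 was higher (4.33 to 14.01 RPKM) and Gli2 lower (21.7 to 6.16 RPKM). Shh, the ligand, stood at 0.0166 and 1.84 RPKM.

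Retinoic acid genes had 9 of 18 higher and 1 lower (median 1.00). Both the synthesis enzyme Aldh1a2 and the degrading enzyme Cyp26a1 were higher, from 0.745 to 45.2 RPKM and 1.08 to 48.0 RPKM, with the binding protein Crabp1 (12.5 to 213 RPKM). The receptor gene Rarg was lower (44.0 to 10.9 RPKM). The list of chemokine and peptide receptors had 11 of 30 higher and 4 lower members (median 0.67). Among receptors of other ligands, Cxcr4, the CXCL12 receptor, went from 0.646 to 56.9 RPKM, its scavenging relative Cxcr7 from 1.64 to 11.3 RPKM, and Apln, the ligand of the apelin receptor, from 0.599 to 6.22 RPKM. The list of receptor tyrosine kinases of mesoderm and vessels was nearly balanced, with 11 of 39 higher and 9 lower members (median 0.001). Kit, the stem cell factor receptor, was lower (16.1 to 3.74 RPKM) and its ligand Kitl higher (0.701 to 4.07 RPKM). The PDGF ligands Pdgfa and Pdgfc were lower, from 34.0 to 9.25 RPKM and 6.29 to 0.532 RPKM, while Pdgfra was higher, as given above.

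**Figure D4:**
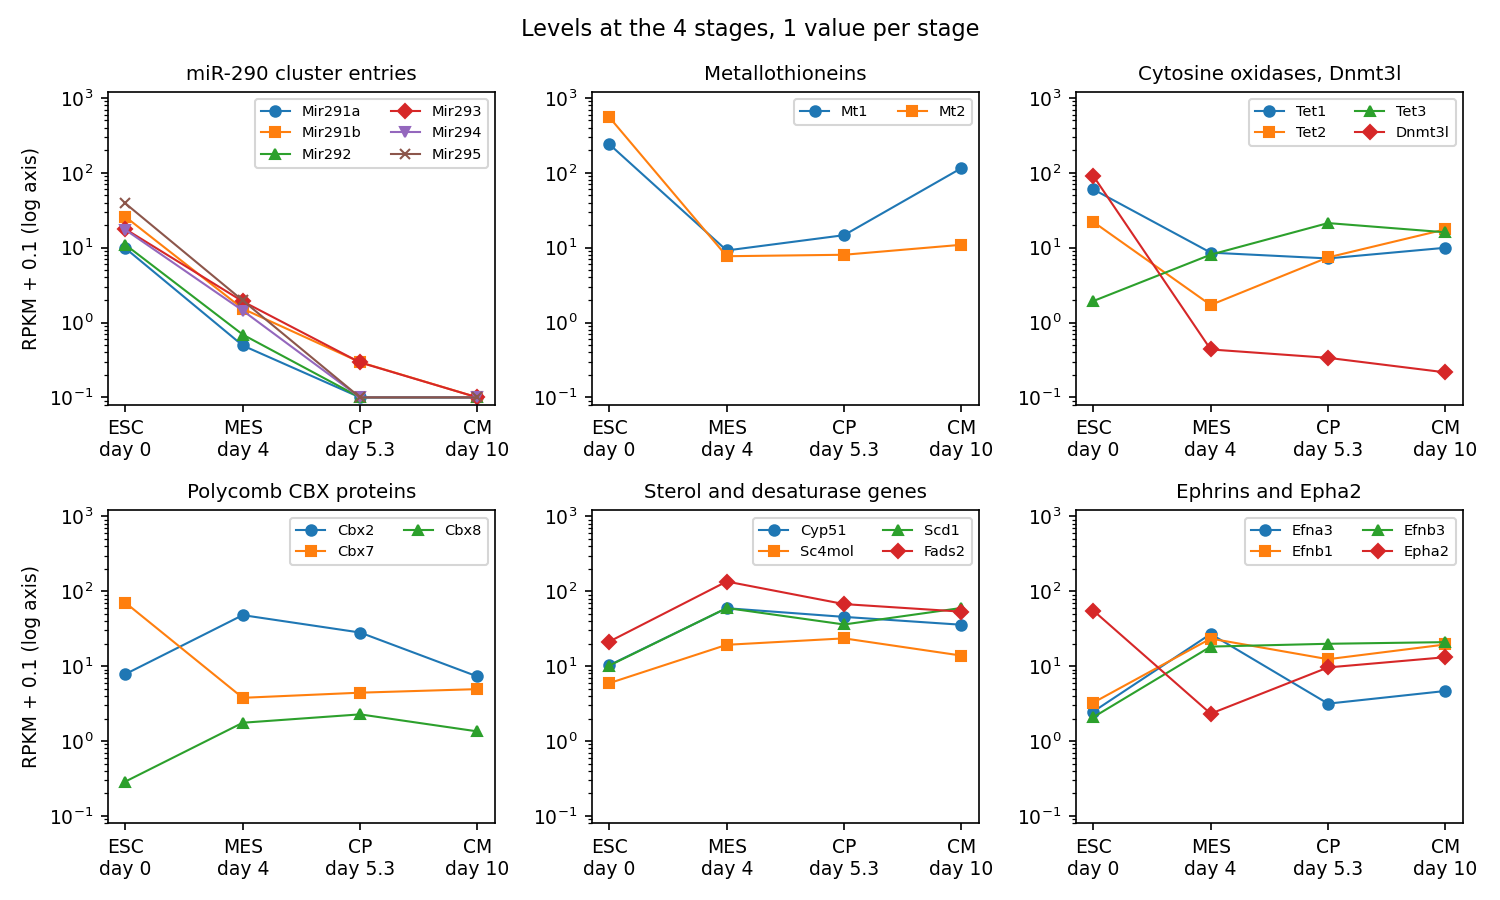
RPKM plus 0.1 on a log axis (y) at the 4 stages (x), 1 value per stage with no replicate, for 6 groups of genes. Cbx7 and Cbx2 cross between ESC and MES, as do Epha2 and the ephrins, and the miR-290 cluster entries go on to 0 by CM.

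Homeobox factors of patterning were more often higher than lower. Of 46 homeobox genes outside the Hox clusters 26 were higher and 2 lower (median 1.42). The Iroquois genes Irx1, Irx3 and Irx5 went from 0.342 to 34.3 RPKM, 0.341 to 20.2 RPKM and 0.422 to 21.2 RPKM, and Six2 from 0.212 to 30.6 RPKM. Of 8 Pbx and Meis genes, cofactors of Hox proteins, 7 were higher, with Meis1 from 0.296 to 4.35 RPKM. Of the Hox genes themselves 10 of 35 looked for were in the table and 4 were higher, all of the front end of their clusters, namely Hoxb1 (0.189 to 24.1 RPKM), Hoxb2 (0.0481 to 13.4 RPKM), Hoxb3 (0.0447 to 8.44 RPKM) and Hoxd1 (0.192 to 1.98 RPKM). Hoxb4 and Hoxb5, next in the cluster, stood at 0.340 and 0.135 RPKM in MES.

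Forkhead factors had 13 of 27 higher and 5 lower members (median 0.83). Foxc1 went from 0.289 to 14.8 RPKM, and Foxh1, the SMAD partner in NODAL signalling, from 24.4 to 139.6 RPKM. Foxo1 and Foxp1 were lower, from 9.79 to 3.95 RPKM and 9.57 to 3.92 RPKM. Of 13 SOX factors 4 were higher and 3 lower (median -0.01). Sox15 was lower (14.1 to 0.214 RPKM) and Sox11, Sox4 and Sox9 were higher, from 6.35 to 47.9 RPKM, 17.8 to 74.6 RPKM and 0.0482 to 10.9 RPKM. Of the T-box genes, Tbx20, Tbx2 and Tbx6 were higher, from 0.820 to 12.9 RPKM, 0.289 to 7.78 RPKM and 0.441 to 13.8 RPKM. Msgn1, a factor of presomitic mesoderm, went from 0.140 to 6.58 RPKM, and Tcf15, which also acts in stem cells, was lower (61.2 to 22.1 RPKM). Kruppel-like factors were more often lower, in 7 of 21 cases against 3 higher (median -0.23), with Klf5 from 80.9 to 3.01 RPKM and Klf9 from 48.8 to 8.16 RPKM, while Sp5, a WNT target, and its relative Sp8 were higher, from 8.68 to 49.5 RPKM and 0.862 to 4.17 RPKM. Of 29 nuclear receptors 6 were lower, among them Nr5a2 (16.0 to 0.0590 RPKM), and 2 higher, Rxra (4.93 to 15.6 RPKM) and Pgr, the progesterone receptor (0.0862 to 1.80 RPKM) (median 0.35).

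Few genes of the proliferation machinery passed 2-fold. Of 23 cyclins and cell cycle kinases, Ccne1, cyclin E of the G1 to S transition, was lower (99.1 to 38.2 RPKM) and Ccnd2, cyclin D2, higher (22.8 to 61.3 RPKM), and the other genes stayed under 2-fold (median -0.07). The inhibitors Cdkn2a and Cdkn2b were lower, from 17.3 to 0.855 RPKM and 5.34 to 0.769 RPKM, and Cdkn1c higher (45.1 to 94.6 RPKM). Myc stood at 31.995 and 30.9 RPKM and Mycn at 125 and 72.7 RPKM, while their antagonist Mxd4 was higher (2.45 to 19.16 RPKM). Of 30 p53 targets and apoptosis genes 6 were lower and 1 higher (median -0.41), with Mcl1, a survival factor, from 139 to 52.7 RPKM. The 77 mitochondrial ribosomal proteins had 4 lower and 1 higher members, and the 38 proteasome subunits 3 lower and 0 higher. The lower proteasome genes were Psma8, named above, and the immunoproteasome subunits Psmb8 and Psmb10, from 3.25 to 0.184 RPKM and 26.0 to 9.05 RPKM.

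Small nucleolar RNAs, which guide the modification of ribosomal RNA, were lower in 27 of 111 entries (24.3%) and higher in 1 (median -0.68). They lack poly(A) tails and mostly lie in introns of host genes, and the part of the hosts' reads in these values was not tested. The 76 long intergenic noncoding RNAs had 20 lower (26.3%) and 6 higher members, and the 12641 protein-coding genes 1384 lower (10.9%) and 1438 higher. On the X chromosome, 81 of 459 genes (17.6%) were higher and 63 (13.7%) lower, with a median of 0.18. Amot, an X-linked regulator of the Hippo pathway, was among the higher ones (3.31 to 93.9 RPKM) and was singled out after its value had been seen.

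Markers of other cell types that the culture could hold were read in the same way. Endoderm markers were higher in 7 of 10 cases and 0 lower, with a median of 2.05. Cer1, a secreted inhibitor, went from a listed 0 to 47.9 RPKM, and the endoderm factors Sox17 and Foxa2 from 0.104 to 9.34 RPKM and 0.125 to 6.88 RPKM. Their summed level was 319.6 and 312 RPKM in ESC and MES, most of it Trh (256.4 to 130.2 RPKM) and Cldn6. Of 13 endothelial markers 1 was higher, Etv2, the first factor of that lineage (0.785 to 18.1 RPKM), and 3 were lower. Cdh5, which defines the mature cells, stood at 0.115 and 0.215 RPKM and Emcn was listed at 0 at both stages. Of 13 blood markers Tal1 and Lmo2 were higher, from 0.157 to 4.23 RPKM and 0.295 to 7.64 RPKM, Hba-x was listed at 0 and Gata1 stood at 0.436 and 0.834 RPKM. Of 10 cardiomyocyte markers 2 were higher, Myl7 (4.27 to 68.1 RPKM) and Tnni1 (0.239 to 5.50 RPKM), and 1 lower, Myh6 (3.33 to 0.454 RPKM). Their summed level was 16.4 and 83.8 RPKM, and Tnnt2, which defines these cells, stood at 0.155 and 0.116 RPKM. Extraembryonic endoderm markers had 5 of 10 higher, led by Gata6 (0.152 to 28.7 RPKM), and 1 lower, with a summed level of 89.8 and 195 RPKM. The higher ones include Lama1, Col4a1 and Col4a2, already given above among the matrix genes. Ttr of the same list was listed at 0 in ESC and stood at 0.158 RPKM in MES. Trophoblast markers had 3 of 9 higher and 2 lower, and the higher ones were Hand1, Eomes and Gata3, from 1.98 to 172 RPKM, 2.36 to 73.7 RPKM and 0.606 to 3.62 RPKM. Eomes is also counted among the streak and mesoderm markers, and Hand1 was also listed with the GATA and T-box factors. Neural markers had 5 of 13 genes in the table, 1 of them higher and 2 lower (median -0.10), with a summed level of 123 and 40.7 RPKM. The part of these other cell types in the differences above was not tested.

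Genes that respond within minutes to handling moved with the stage. Of 20 immediate-early and dissociation genes 7 were higher and 5 lower (median 0.19). The AP-1 components Fos, Fosb and Jun went from 2.68 to 41.9 RPKM, 1.27 to 22.04 RPKM and 6.25 to 60.6 RPKM, and Egr1 from 19.9 to 94.0 RPKM, while Ier3 and Nr4a1 were lower, from 8.04 to 0.953 RPKM and 16.4 to 6.43 RPKM. The small heat shock proteins Hspb1 and Cryab were lower, from 74.5 to 0.971 RPKM and 13.3 to 0.0186 RPKM, and Hspb1 shares 56.4% of its 32-base words with other genes. The cells of MES had been dissociated and reaggregated, and handling and stage cannot be told apart in these libraries.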

How the data were processed

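Poly(A) RNA from mouse cells was sequenced in 2 libraries per stage, per the labels' protocols. The submitters' processing notes name the aligner Novoalign 2.07.00 and the build mm9. No source used here gives the counter, the annotation, the use of strand or the way 2 libraries became 1 value. The deposited values are RPKM per the file headers, with 1 column per stage. Each listed gene exceeds 1 RPKM at 1 or more of the 4 stages, so a missing gene cannot be called absent. A gene expressed in ESC only enters through that stage, so lists of such genes can only hold lower members.

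From these, log2(RPKM + 1) differences of MES minus ESC were computed with Python 3.11.15 (pandas 2.3.3), and genes at least 2-fold apart were counted over all genes and over gene lists. The members and lists were chosen with earlier results of these data known. Of 1561 genes in 69 lists, 1300 were in the table, 7 matched by gene ID. A further 39 families were defined by symbol.

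Named genes are the 12 with the largest log2 difference and the 8 with the largest RPKM difference in each direction (without clone or model names and replication-dependent histones), cell type markers, and per list the 4 most different members past 2-fold and the 3 most abundant others. Members beyond that rule were named after their values were seen. Of the 8 largest RPKM losses, mmu-mir-689-2.1 and mt-Co1, which share 100.0% and 62.9% of their 32-base words with other genes, and the microRNA entry Mir715, with the highest ESC value of the table, were not described. Some genes that the rule names are not reported here.

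Depth came from the whole-read steps between low RPKM values, scaled with GENCODE M21 exon lengths. For 10919 genes (80.6%) read numbers were found, up to a common factor. The absolute depth is where most genes cluster, with 24.7% of the 10614 genes used within 0.2%, so read numbers are approximate. A 2 kb gene at 1 RPKM in MES rests on 124 reads, with a 95% Poisson interval from 83.2% to 119% (counting error only). The counting and depth steps were tested on simulated data. Shared sequence means the share of all 32-base words in the longest M21 transcript that other genes' transcripts also hold. Without known strand use, overlapping and antisense genes cannot be told apart. Promoter windows and microRNAs are from RefSeq (GRCm38.p6), a build other than that of the files. Alternatives were other pseudocounts, a 4-fold minimum, a filter and 3 scalings.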

Additional observations from a re-analysis of the deposited data

How the results depend on the processing

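Of 1498 higher and 1519 lower genes, a pseudocount of 0.1 gave 2273 higher and 2103 lower, and a minimum of 4-fold gave 376 and 470. Under the other settings the counts stayed within 1.5 times, at 1830 and 1810 with a pseudocount of 0.5, 1288 and 1164 over genes reaching 3 RPKM, 2193 and 1893 with each stage scaled to sum to 1000000, 1427 and 1556 centred on the median ratio, and 1450 and 1510 with quantile normalization. Which direction was more frequent therefore depends on the setting. Scaling to a common sum raised the median of all genes from 0.05 to 0.11 and also lessens the weight of the pseudocount. Of 684 named genes and markers, 0 of those past 2-fold changed direction under the 3 scalings. Changes of sign among genes under 2-fold were not counted, and another pseudocount cannot change a sign. The filter at 3 RPKM kept 609 of these genes and left their values as they were, so it is no check on single genes. Centring and quantile normalization each moved 1 called gene under 2-fold, and a pseudocount of 0.1 put 37 more past it. Of 108 list medians, 0 changed sign among those beyond 2-fold. Leaving out members that share over 50% of their words with other genes, an alternative added after seeing the data, moved 0 medians across the 2-fold limit. Scaling to a common sum moved some small counts by over 1.5 times, among them lower semaphorin and related genes from 4 to 7, lower BMP and TGF-beta genes from 5 to 8 and higher amino acid transporters from 3 to 5. No paired analysis was possible because the table has 1 column per stage, and leaving out each library in turn was not run for the same reason.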
